A study of Mus musculus with 10 samples.

Results

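Transcription and the repressive histone mark H3K27me3 were described side by side in mouse duodenal organoids kept in WENRC, the stem cell medium of the study. The description rests on 3 of the 10 samples of the series, which are all its GRO-seq and H3K27me3 samples in this medium. These are 2 global run-on sequencing (GRO-seq) libraries from organoids of separately numbered mice and 1 H3K27me3 ChIP-seq library. WENRC contained EGF, R-spondin, Noggin, Wnt3A and CHIR-99021, a GSK3 inhibitor that activates Wnt signalling, and the organoids grew in Matrigel. The labels give the primary cell type as intestinal stem cell, and no strain, age, sex or genotype is given in the sources used here. The 2 GRO-seq columns could be tied to this medium but not to a mouse number, and the culture that gave the ChIP library is not named, so the libraries are called the first and the second in the order of the deposited table. With 2 libraries of 1 group and 1 ChIP library, no test between groups was possible, and all comparisons below are descriptions.

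GRO-seq lets RNA polymerases that are already engaged on a gene extend their transcripts in isolated nuclei with a labelled nucleotide, so it reads ongoing transcription and not the stored RNA pool. H3K27me3 is written by Polycomb repressive complex PRC2, with Ezh2 or Ezh1 as the catalytic subunit and Eed and Suz12 as core partners, and is read by CBX proteins of PRC1. In many tissues it covers CpG-rich promoters of developmental regulators of other lineages. In the crypt of the small intestine, Wnt signals keep stem cells dividing, and their daughters become absorptive enterocytes or secretory goblet, Paneth, enteroendocrine and tuft cells.

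The 5 promoters below show the kinds of gene that the results turn on. Axin2, a feedback gene of the Wnt pathway, was transcribed and carried no mark, and so was Alpi, the brush border alkaline phosphatase of enterocytes. Atf3, a stress-induced transcription factor, and Klf4, a transcription factor of gut epithelium, were transcribed with a region beside the start. Neurog1, a factor that specifies neurons, had a start inside a region and 0 reads. Each sequence is the 250 bases before the start that RefSeq gives for the gene in build GRCm38.p6, 5′ to 3′ on the strand of the gene, with every CG in capitals. The expression files use build mm9, so the start in this table may differ from the one used for the mark.
Axin2, chr11:108920099-108920348, plus strand: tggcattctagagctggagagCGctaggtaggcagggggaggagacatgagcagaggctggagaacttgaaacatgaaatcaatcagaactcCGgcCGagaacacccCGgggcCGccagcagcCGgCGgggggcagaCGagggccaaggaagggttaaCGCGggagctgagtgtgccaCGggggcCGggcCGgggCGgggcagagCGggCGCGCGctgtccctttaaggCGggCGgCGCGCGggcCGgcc
Alpi, chr1:87101607-87101856, minus strand: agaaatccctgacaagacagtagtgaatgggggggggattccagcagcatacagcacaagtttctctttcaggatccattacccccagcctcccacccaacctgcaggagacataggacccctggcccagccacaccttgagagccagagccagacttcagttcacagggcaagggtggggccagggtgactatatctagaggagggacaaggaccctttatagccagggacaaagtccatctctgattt
Atf3, chr1:191183334-191183583, minus strand: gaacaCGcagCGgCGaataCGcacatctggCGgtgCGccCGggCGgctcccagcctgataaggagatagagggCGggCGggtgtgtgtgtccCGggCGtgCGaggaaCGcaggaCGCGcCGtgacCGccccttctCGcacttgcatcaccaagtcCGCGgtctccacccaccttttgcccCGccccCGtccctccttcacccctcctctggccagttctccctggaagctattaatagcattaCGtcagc
Klf4, chr4:55532476-55532725, minus strand: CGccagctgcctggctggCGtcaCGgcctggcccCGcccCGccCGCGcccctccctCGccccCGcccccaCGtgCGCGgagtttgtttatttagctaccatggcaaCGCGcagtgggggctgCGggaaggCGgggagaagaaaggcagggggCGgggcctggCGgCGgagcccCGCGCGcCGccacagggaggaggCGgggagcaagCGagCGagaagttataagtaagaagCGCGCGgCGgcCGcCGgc
Neurog1, chr13:56252181-56252430, minus strand: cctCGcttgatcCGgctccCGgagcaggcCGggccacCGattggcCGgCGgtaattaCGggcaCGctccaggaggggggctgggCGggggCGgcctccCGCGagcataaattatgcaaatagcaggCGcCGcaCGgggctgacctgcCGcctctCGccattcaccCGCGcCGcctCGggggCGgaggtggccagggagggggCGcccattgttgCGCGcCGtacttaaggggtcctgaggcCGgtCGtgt

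Alpi had 0 CG pairs in these 250 bases, whereas Axin2 had 24, Atf3 24, Neurog1 29 and Klf4 32. Over the 32851 promoter windows of the same table the median was 6 CG pairs, and 88.0% of windows had fewer than Axin2 or Atf3. The Sp1-type box CCGCCC, searched on both strands, was found in the Axin2, Atf3, Klf4 and Neurog1 sequences and in 32.7% of all windows. The other motifs were searched on both strands too. TATAAA was found in Alpi, only as its reverse complement TTTATA, and in 12.4% of all windows. The E-box CACGTG was found in Klf4 and in 6.02%. CTTTGAT, a core letter sequence of TCF binding, was in none of the 5 and in 3.21% of all windows. A comparison of CG content between marked and unmarked promoters was void, because a window was found for 72.3% of marked genes and 74.5% of all genes, under the 80% required.

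The first library held 16302292 reads and the second 5868922 over 1 transcript per gene, so levels in the second carry more counting error. Levels are given as reads per kb of transcript per 1M reads of the column (RPKM). Over 24016 genes, log2 levels in the 2 libraries correlated at r = 0.975, a description across genes, which are not independent replicates. A gene was called transcribed where it had at least 0.5 RPKM in both libraries, which 10872 genes did (45.3% of all genes). The ChIP library held 31.4M tags, of which 4.45% lay in the 5009 regions of the authors' broad list. Nothing in the sources says whether reads were counted by strand, so reads of overlapping genes cannot be told apart.

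Genes that mark crypt stem cells and dividing cells were transcribed in both libraries, and none of the 5 markers had a marked promoter. Over all genes 45.3% were transcribed and 10.5% marked, so 0 marked of 5 is not set apart from that share. Lgr5, the R-spondin receptor of crypt base stem cells, had 1.96 RPKM in the first library and 2.86 RPKM in the second. Axin2 had 7.96 and 11.9 RPKM, rank 549 of 24016 genes by mean level. Ascl2, a transcription factor of the same stem cells, had 1.44 and 1.77 RPKM, from only 91 and 40 reads. Olfm4, a secreted glycoprotein that marks them, had 1.51 and 2.12 RPKM. Mki67, a protein of dividing cells, had 6.67 and 6.10 RPKM. All 5 were above the median of all genes, which was 0.394 RPKM in the first and 0.386 RPKM in the second library, and 4 of the 5 were higher in the second. So were 5196 of the 11721 genes with at least 0.5 RPKM in either library.

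A wider list of 21 crypt base stem cell genes had 19 transcribed members, against 45.3% of all genes, and 2 with a marked promoter (9.52%). A promoter was called marked where a broad region covered at least 1 bp within 2 kb either side of the start, as for 10.5% of all genes. The marked share of the crypt base list was close to that of all genes. Sox9, a transcription factor of crypt progenitors, had 5.96 and 11.3 RPKM without a mark, and the Wnt-limiting ubiquitin ligase gene Rnf43 had 7.13 and 8.99 RPKM. The marked members were Bmi1, a PRC1 subunit, at 0.987 and 1.06 RPKM, and the imprinted gene Peg3 at 0.176 and 0.535 RPKM. The list of Wnt targets, which shares members with it, was less uniform, with 13 of 20 transcribed and 5 marked. Sp5, a Wnt-induced transcription factor, was the only marked Wnt target that was transcribed, at 3.40 and 3.51 RPKM. The other marked targets had at most 0.215 RPKM in either library, and they were Lef1 (0.125 and 0.125), a DNA-binding partner of beta-catenin, Prox1 (0.140 and 0.215), Apcdd1 (0.0464 and 0.151) and Notum (0.0329 and 0.0307), the last 2 being extracellular Wnt inhibitors.

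Growth genes were transcribed without exception in the lists examined. All 30 cell cycle genes, 20 of 20 ribosome biogenesis genes and 32 of 32 cytosolic ribosomal protein genes were transcribed. In the 3 lists 0 promoters were marked. Of all genes, 45.3% were transcribed and 10.5% marked. The counts hold for the listed genes only, since Rpl26 and Ccnd2, which are outside the lists, were transcribed with a marked promoter. The median levels of the 3 lists, in the same order, were 2.00, 2.63 and 14.7 RPKM. Pcna, the sliding clamp of DNA replication, had 7.99 and 9.39 RPKM. Ncl, the nucleolar protein nucleolin, had 28.7 and 27.3 RPKM, and Rps2, a protein of the small ribosomal subunit, 56.7 and 78.9 RPKM. The narrow list of regions, which marks 17.8% of all promoters, added 1 cell cycle and 1 ribosomal protein promoter.

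Reads were spread over many genes. The precursor of ribosomal RNA, Rn45s, took 2.45% of the reads of the first library and 3.35% of those of the second. The 100 most read genes took 11.0% and 11.7%, and 1659 and 1693 genes were needed to reach 50% of the reads. Long coding genes led by share after Rn45s and the nuclear noncoding RNA Malat1 (0.352% and 0.363%). Cdk8, a kinase of the Mediator complex, took 0.320% and 0.308% of reads. Per kb the order was different, since 18 of the 20 highest levels belonged to genes under 500 bp, 14 of them small nucleolar RNAs, most inside host genes whose reads cannot be told apart from theirs. Rmrp, the RNA of RNase MRP, had 1360 and 962 RPKM. Among coding genes, histone genes were the most frequent at the top, led by Hist2h2aa1 at 124 and 131 RPKM, which overlaps its near-identical neighbour Hist2h2aa2. Of the 500 genes with the highest level, 4 had a marked promoter (0.800%, against 10.5% of all genes).

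Marked promoters belonged mostly to genes with little nascent transcription. The 2516 marked genes had a median of 0.0207 RPKM in the first library and 0.0420 RPKM in the second, against 0.537 and 0.533 RPKM for the 21500 other genes. Of the marked genes, 289 were transcribed (11.5%, exact 95% binomial interval 10.3% to 12.8%), against 49.2% of the others. On the scale of log2 (RPKM + 0.5) the medians differed by −0.97, and by −0.99 in the first and −0.93 in the second library alone. That difference depends on the pseudocount, being −2.28 with 0.1 RPKM and −0.58 with 1 RPKM, and it was −0.33 among transcribed genes only. The ChIP library gives no replicate for the mark, and genes that share a region are not independent.

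**Figure D1:**
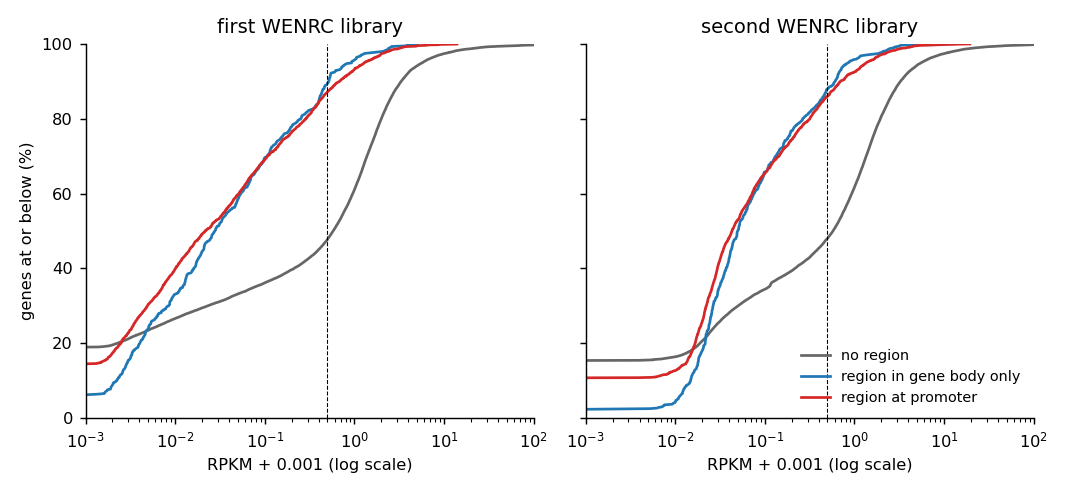
Cumulative share of genes (y axis, %) by level of nascent transcription (x axis, RPKM plus 0.001, log scale) in the first and the second WENRC library. Red is genes with an H3K27me3 region at the promoter (2516), blue those with a region in the gene body only (593) and grey those with no region (20907), and the dashed line is 0.5 RPKM. The red and blue curves lie above the grey from 0.1 RPKM upwards in both libraries.

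A region inside the gene but away from the promoter went with low levels too. The 593 genes with a region in the gene body only had a median of 0.0269 RPKM in the first and 0.0488 RPKM in the second library, and 10.1% of them were transcribed. Genes with no region had medians of 0.578 and 0.575 RPKM, and 50.3% were transcribed. Genes with a region in the body only were also longer, with a median of 56311 bp against 12951 bp, and the part of length in this was not tested.

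The share of marked promoters was not highest among silent genes. The 2876 genes with 0 reads in both libraries had marked promoters in 6.54% of cases, and the 21140 genes with reads were split by level into 10 equal groups of 2114. The lowest group, with a median of 0.00844 RPKM, had 23.3% marked, and the next groups had 23.7%, 21.7% and 17.6%. The share was then 11.1% in group 5 and 4.16% in group 6, whose members had at least 0.620 RPKM. In the highest group it was 1.32%, which is 28 genes. Of the 2876 genes with 0 reads, 1057 were chemoreceptor genes (Olfr, Vmn and Taar names) and 507 were microRNA or small nucleolar RNA genes. The median length of the 2876 genes was 953 bp, so 0 reads there allow higher levels than in long genes.

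**Figure D2:**
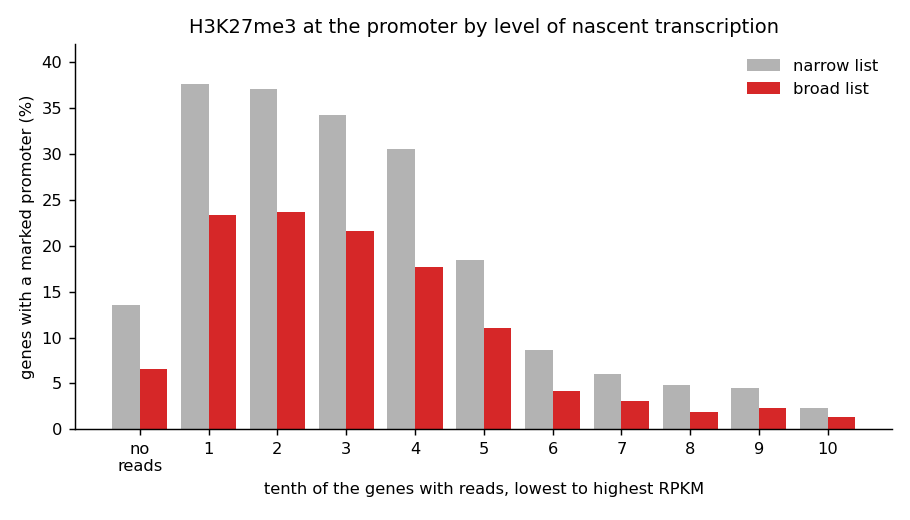
Share of genes with a marked promoter (y axis, %) among genes with 0 reads and in each of 10 equal groups of the genes with reads, from the lowest to the highest mean RPKM (x axis), by the authors' broad list (red) and narrow list (grey). The bars of the broad list are highest in the lowest groups, at 23.3% and 23.7%, and lowest in the highest group, at 1.32%.

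Of the 5009 broad regions, 2167 lay at a promoter (43.3%), 1033 in a gene body only and 1809 outside the genes of the table. Promoter regions were longer, with a median of 3549 bp against 1000 bp for each of the other kinds, and held 76.7% of the tags in regions. Regions of 1000 bp, the window of the broad search, made up 13.8% of promoter regions and 54.0% of those outside genes. The longest were the Hox clusters, in build mm9. The Hoxc region ran over 173151 bp (chr15:102727334-102900485), the Hoxb region over 152047 bp, the Hoxa region over 130722 bp and the Hoxd region over 123172 bp. After these came regions at Rdx, a cytoskeletal linker gene (109064 bp), at the forkhead gene Foxd1 (93767 bp), at the LIM homeobox gene Lhx2 (89558 bp) and at the paired box gene Pax3 (88077 bp).

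Marked genes differed in level by how the region lay on the promoter. Over the 2516 marked genes, Spearman's rho between level and region length was −0.0977, and between level and the authors' fold over input it was −0.0277. Between level and the authors' score for the region, rho was 0.0885, of the opposite sign. These values are weak and are not taken as relations. Of the 1879 marked genes whose start lay inside the region, 8.14% were transcribed, against 21.4% of the 637 whose start lay outside it but within 2 kb. Where the whole window was covered, 6.66% of 826 genes were transcribed, against 13.8% of the 1690 genes with part of it covered. Transcribed marked genes had a median of 1774 bp of the window covered, and the other marked genes 3069 bp. Their regions had a median length of 3190 bp and 4153 bp, 63 and 78.9 tags per 10M, and a fold over input of 5.11 and 5.22. Of genes with regions under 2 kb 14.2% were transcribed, and of those with regions of 10 kb or more 9.77%. Length and position were not separate, since the region held the start for 36.3% of the genes with regions under 2 kb and for 94.8% of those with regions of 10 kb or more.

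A transcribed gene overlapped 63 of the 289 transcribed marked genes (21.8%), close to the 22.7% of unmarked transcribed genes. Among marked genes that were not transcribed the share was 1.93%, and to which of 2 overlapping genes a read belongs cannot be told apart. A transcribed gene, marked or not, started within 2 kb of 21 of the 289 (7.27%), against 20.8% of the 10583 unmarked transcribed genes. Another RefSeq transcript with an unmarked start was listed for 23 of the 289.

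Subunits of PRC2 were transcribed and unmarked. Ezh2 had 1.71 and 1.85 RPKM, Ezh1 1.04 and 1.08 RPKM, Eed 2.41 and 2.73 RPKM and Suz12 2.22 and 2.22 RPKM. The accessory subunit gene Jarid2 had 2.85 and 4.43 RPKM. It is 190869 bp long and ranked 12 by share of reads, but 1836 by mean level. All 11 PRC2 genes of the list were transcribed, with 0 broad regions and 1 narrow region at their promoters. In PRC1, 18 of 20 genes were transcribed and 4 were marked, all 4 of them transcribed. Of all genes, 45.3% were transcribed and 10.5% marked. Cbx2 and Cbx8, CBX readers of the mark, had 1.00 and 1.69 RPKM and 0.969 and 1.70 RPKM. Genes of H3K27 demethylases and trithorax proteins carried 0 marks in 14, and Kdm6b, a demethylase of this residue, had 5.48 and 6.29 RPKM.

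Lists of regulators of other lineages had most of their members marked. All 39 Hox genes were marked, 45 of 46 other homeobox and patterning genes, 26 of 31 T-box, SOX, GATA and forkhead genes and 17 of 22 neurogenic and myogenic bHLH genes, against 10.5% of all genes. The median level was 0.0149 RPKM for the homeobox list, 0.0196 RPKM for the T-box to forkhead list and 0 for the bHLH list, of which 12 genes had 0 reads. A few marked members were transcribed nonetheless. The forkhead gene Foxc1 had 1.95 and 1.33 RPKM and Sox21 had 1.59 and 1.17 RPKM, both with the whole window covered. Pitx1, a homeobox gene of limb and pituitary patterning, had 0.747 and 1.04 RPKM. Unmarked members of these lists with higher levels were Tbx3 (3.72 and 3.93 RPKM) and Gata5 (2.11 and 2.29 RPKM).

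**Figure D3:**
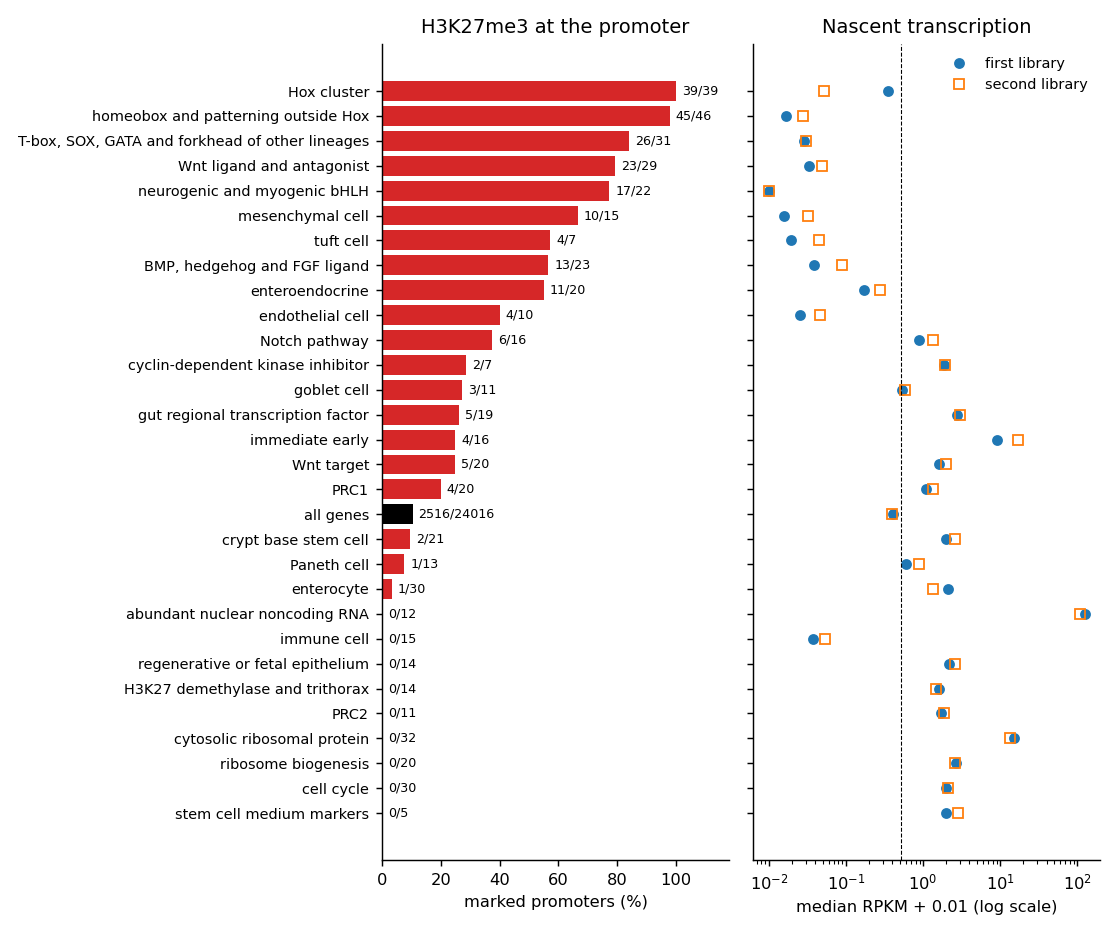
Marked promoters in each gene list (left, bars, % of the list's genes, with marked and found genes printed beside each bar) and the median level of the list in the first (blue circles) and the second library (orange squares, right, RPKM plus 0.01, log scale, dashed line at 0.5 RPKM). The black bar is all genes, 2516 of 24016. Lists of developmental regulators stand at the top with low medians, and growth lists at the bottom with high medians.

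The Hox clusters differed in transcription although every gene lay inside a region. In the Hoxb cluster 6 of 10 genes were transcribed, and they were Hoxb3, Hoxb4, Hoxb5, Hoxb6, Hoxb7 and Hoxb9. Hoxb6 had 1.68 and 1.71 RPKM, Hoxb9 1.61 and 1.69 RPKM and Hoxb5 1.84 and 1.04 RPKM. In the Hoxc cluster the 9 genes had 0 reads in the first library and 8 in the second. The Hoxa and Hoxd clusters differed between the libraries. Over 11 Hoxa genes the first library had 1101 reads and the second 109, a ratio of 0.277 after scaling to library size (exact 95% interval for counting error 0.225 to 0.337). Over 9 Hoxd genes there were 1191 and 30 reads, a ratio of 0.0704 (0.0473 to 0.101), and over the 10 Hoxb genes 1350 and 418 reads, a ratio of 0.865 (0.774 to 0.966). Only 4 of the 9 Hoxd genes had reads in the first library and 5 in the second. Hoxd3 had 936 and 21 reads, and Hoxd4, which lies inside Hoxd3, had 217 and 5. Reads of overlapping genes can enter these sums more than once, which the intervals do not cover. Hoxa10 had 0.894 and 0.0448 RPKM, Hoxa9 0.770 RPKM and 0 reads, and Hoxd4 1.17 and 0.0753 RPKM. Which of the 2 cultures, if either, gave the ChIP library is not known, so these levels cannot be set against the mark culture by culture.

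**Figure D4:**
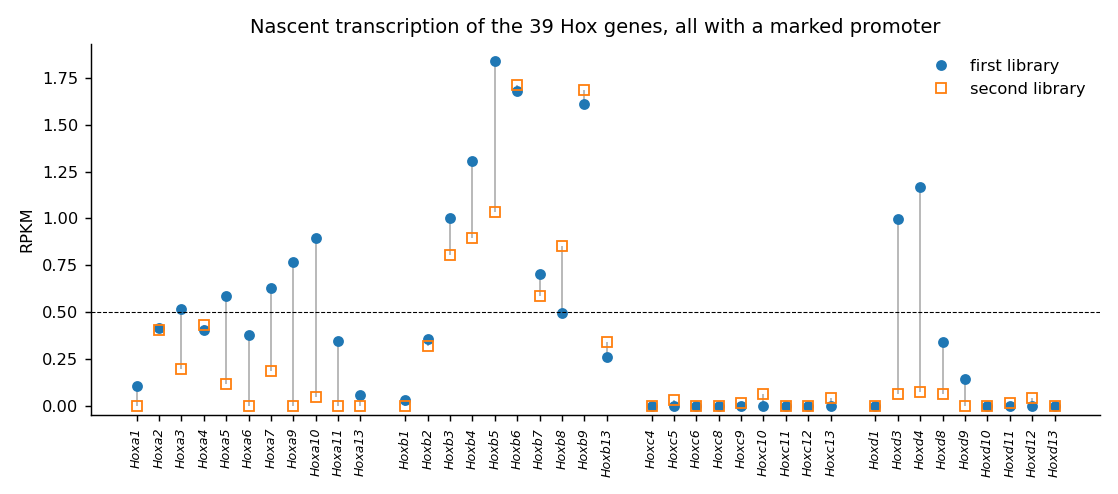
Level of nascent transcription (y axis, RPKM) of the 39 Hox genes in cluster order (x axis) in the first (blue circles) and the second library (orange squares), joined by a grey line, with 0.5 RPKM dashed. Hoxb3 to Hoxb9 stand at or above the dashed line in nearly all cases, and Hoxa10, Hoxa9, Hoxd3 and Hoxd4 stand above it in the first library only.

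Secreted signals of the Wnt pathway were mostly marked and little transcribed. Of 29 Wnt ligands and antagonists, 23 were marked, and of 23 BMP, hedgehog and FGF ligands, 13, against 10.5% of all genes. Wnt2b, a Wnt ligand, was transcribed with a marked promoter at 1.70 and 1.73 RPKM. Wnt3, the Paneth cell Wnt, was marked at 0.184 and 0.259 RPKM. Ihh, the hedgehog ligand of gut epithelium, was unmarked at 7.40 and 8.54 RPKM, whereas Shh was marked at 0.264 and 0.474 RPKM. Bmp4 was marked and had 0 reads. In the Notch pathway 12 of 16 genes were transcribed, against 45.3% of all genes. Of the 16, 6 were marked, 3 of them transcribed. Hes1, the main Notch effector of crypt cells, was unmarked at 9.79 and 14.6 RPKM, while its relative Hes5 was marked at 0.909 and 1.34 RPKM and Hey1 was marked at 0.0105 and 0.0294 RPKM. Lfng, a glycosyltransferase that modifies Notch receptors, was marked at 2.04 and 2.28 RPKM.

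Among intestinal cell types, the enteroendocrine and tuft lists had the largest shares of marked genes and the enterocyte list the smallest. The share over all genes was 10.5%. Of 13 Paneth cell genes 1 was marked (7.69%). With 1 marked gene each, the Paneth cell and enterocyte shares were not set apart from that of all genes. Of 20 enteroendocrine genes 11 were marked, and 0 of the 11 were transcribed in both libraries. They include the lineage factors Neurog3 (0.763 and 0.259 RPKM), Pax6 (0.778 and 0.213 RPKM) and Neurod1 (0.291 and 0.514 RPKM), each above 0.5 RPKM in 1 library. The unmarked hormone gene Ghrl had 2.79 and 2.42 RPKM, and Sst and Pyy were marked with 0 reads. Of 7 tuft cell genes 4 were marked, among them the tuft cell factor Pou2f3 (0.0516 and 0.0978 RPKM). Of 11 goblet cell genes 3 were marked. These were Atoh1, which specifies secretory cells (0.296 and 0.569 RPKM), Gfi1, which acts after it (0.0634 and 0.0473 RPKM), and Spink4, a secreted inhibitor (1.83 and 1.95 RPKM). Of 30 enterocyte genes 1 was marked, the peptide transporter Slc15a1, at 0.0907 and 0.0711 RPKM. In such bulk libraries, fewer cells of a type and less transcription per cell cannot be told apart. Whether mark and transcription of a gene lay in the same cells was not tested.

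Transcription factors of gut regions were mostly transcribed, with 16 of 19 at 0.5 RPKM or more in both libraries and 5 marked. The shares over all genes were 45.3% transcribed and 10.5% marked. Cdx2, an intestinal homeobox factor, had 7.52 and 8.26 RPKM, Pdx1, of duodenum and pancreas, 3.40 and 3.15 RPKM, and Gata4, of the proximal intestine, 5.15 and 4.00 RPKM, all unmarked. Sox2 and Barx1, factors of stomach and foregut, were marked, with 0 reads and with 0 and 0.0311 RPKM. Klf4 and Nkx6-2 were the marked members that were transcribed. Klf4 had 2.23 and 3.75 RPKM with its start outside the region, and Nkx6-2 had 2.42 and 2.24 RPKM with its whole window covered.

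The 20 marked genes with the highest levels include 4 microRNA genes, Mir7067, Mir5130, Mir6546 and Mir5620, with at most 19 reads in either library. Ccnd2, cyclin D2, had 11.4 and 14.9 RPKM, rank 406 of 24016, with only 290 bp of its window covered. Rpl26, a ribosomal protein gene, had 14.1 and 13.6 RPKM and overlaps Gm15772, and 1317 bp of its window were covered. Atf3 had 8.76 and 19.4 RPKM, with 1492 bp covered by a region of 8019 bp that did not hold the start. Fam69b (8.91 and 8.11 RPKM), Car15 (6.50 and 6.06 RPKM), Dnajc22 and Cnih2 also had the start outside the region. Starts inside a region were found for Ndufa4l2 (6.27 and 7.32 RPKM), a mitochondrial protein gene, and its overlapping neighbour Shmt2 (5.03 and 4.23 RPKM), a serine hydroxymethyltransferase, which share a region of 28255 bp. Tpm1, a tropomyosin with 5.11 and 6.68 RPKM, also had its start inside, but 4 of its 10 listed transcripts start away from a region. At a level of 5 RPKM or more in both libraries there were 9 marked and 1067 unmarked genes.

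Immediate early genes, which respond rapidly to stimuli, were among the highest lists, with a median of 13.0 RPKM. In this list 15 of 16 were transcribed, against 45.3% of all genes, and 4 were marked, against 10.5%. Jun had 33.1 and 53.2 RPKM and Fos 23.6 and 30.4 RPKM, both unmarked. The marked members were Atf3, Fosl1 (1.33 and 1.79 RPKM), Egr2 (0.663 and 1.60 RPKM) and Egr3 (0.0899 and 0.335 RPKM). Among cyclin-dependent kinase inhibitors, Cdkn1a had 8.77 and 16.5 RPKM and Cdkn2b 4.46 and 4.40 RPKM without a mark. Cdkn2a, a known Polycomb target, was marked at 0.152 and 0.306 RPKM, and the imprinted gene Cdkn1c was marked at 0.571 and 1.16 RPKM.

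The 2 libraries differed in sex-linked transcripts and, by smaller amounts, in several gene lists. Among 11721 genes with at least 0.5 RPKM in either library, 136 were more than 2-fold higher (1.16%) and 237 more than 2-fold lower (2.02%) in the second on the scale of log2 (RPKM + 0.5). Of these, 101 and 203 were genes under 500 bp. Apart from Xist and Tsix, the 10 named genes furthest apart in each direction were microRNA genes with at most 23 reads. Of those 18 microRNA genes, the exact interval of the ratio excluded 1 for Mir194-1, with 23 and 0 reads. It also did so for Mir193a, Mir3097, Mir6968 and Mir6955, with 0 and 3 reads each. The 18 were picked by the same reads, so these intervals cannot tell a difference from counting error. For 384 marked genes of the 11721, 10 were higher and 10 lower (2.6% each). Genes with at least 50 reads, of which 32 were higher and 62 lower, are named next, a choice made with their values in view.

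Xist, the noncoding RNA that coats an inactive X chromosome, had 0.0677 RPKM in the first and 12.9 RPKM in the second library. Ddx3y, a Y-linked helicase gene, had 1004 reads in the first library and 0 in the second. Eif2s3y had 421 and 0 reads, Uty 3441 and 3, and Kdm5d 903 and 3. Y-linked reads were thus confined, but for 6 reads of Uty and Kdm5d, to the first library among these 4 genes. Sex is not in the labels used here, and it cannot be told apart from any other difference between the 2 cultures.

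Enterocyte genes were lower in the second library for 22 of 25 members with at least 0.5 RPKM in either, with a median log2 difference of −0.50 against −0.02 over all such genes. Of the 11721 such genes, 5196 were higher and 6525 lower in the second, the background for the counts below. Alpi had 11.9 RPKM in the first and 3.06 RPKM in the second library, a ratio of 0.257 (exact 95% interval for counting error 0.208 to 0.315). Apoa4, an apolipoprotein of lipid export, had 10.3 and 3.48 RPKM, and Ces2a, a carboxylesterase, 8.23 and 1.32 RPKM. Genes of Paneth cells lay the other way, higher in the second for 8 of 8. Defa3, a defensin with near-identical relatives, had 6.60 and 18.5 RPKM, and Lyz1, lysozyme, 0.969 and 2.60 RPKM. Immediate early genes were higher in the second for 15 of 15, with a median log2 difference of 0.53. Regenerative or fetal epithelium genes were higher in the second for 8 of 11, with a median of 0.66. Wnt targets were higher for 13 of 14 and crypt base stem cell genes for 16 of 21, with medians of 0.24 and 0.23. The Wnt target and crypt base lists share members, among them Lgr5, Axin2 and Sox9, so their counts are not separate. Cyr61, a secreted target of YAP, had 8.44 and 20.6 RPKM, Thbs1, a matrix glycoprotein, 2.99 and 8.82 RPKM and Plk2, a stress-responsive kinase, 4.60 and 13.6 RPKM. Chl1, a neural cell adhesion gene, had 49 reads in the first library (0.00854 RPKM) and 1531 in the second (0.745 RPKM). Cell cycle genes lay close together, with a median log2 difference of −0.04. These values compare 2 libraries, with no replicate of either culture.

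Among marked genes, those furthest apart with at least 50 reads were Tfap2a, an AP-2 transcription factor, with 2.06 and 0.405 RPKM, and the Hox genes Hoxd3, Hoxd4, Hoxa9 and Hoxa10, all higher in the first library. Atf3, F3 (tissue factor, which starts coagulation) and the muscle actin gene Acta1, with only 24 and 35 reads, were higher in the second. The noncoding gene Hoxd3os1 of the Hoxd cluster had 172 and 6 reads. F3 had 1.81 and 4.26 RPKM, a ratio of 2.35 (exact 95% interval 2.07 to 2.67). Log2 levels of the marked genes correlated at r = 0.952 between the libraries, over 2516 genes.

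**Figure D5:**
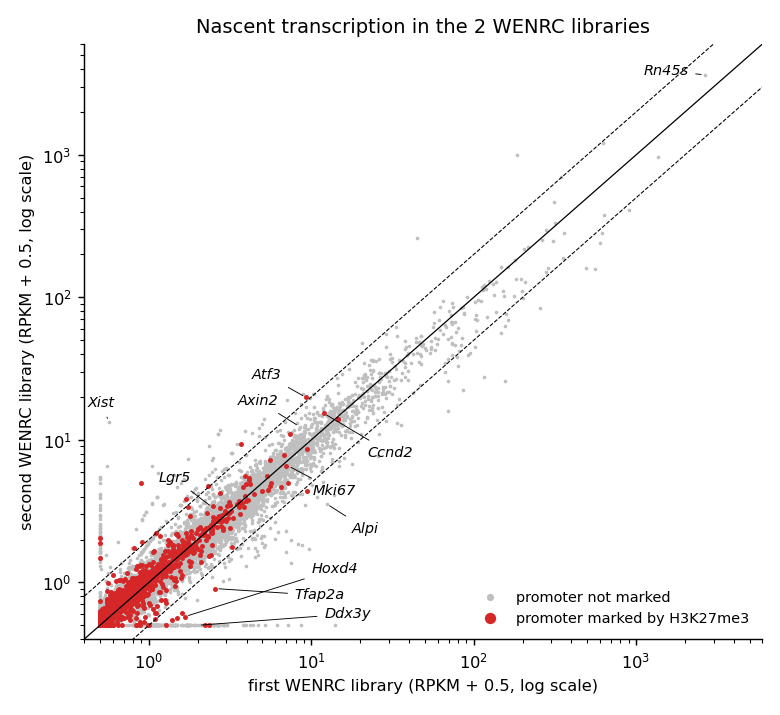
Level of nascent transcription in the first (x axis) and the second WENRC library (y axis), as RPKM plus 0.5 on log scales, for 24016 genes. Red points are genes with a marked promoter, grey points the others, the solid line is equality and the dashed lines are 2-fold either way. Marked genes crowd at the lower left, Atf3 and Ccnd2 are among the highest of them, and Xist and Ddx3y lie far from the line.

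Mesenchymal and endothelial markers were low, and 3 immune markers were transcribed. The 15 mesenchymal genes summed to 1.85 RPKM in the first and 1.41 RPKM in the second library, of which Acta2 gave 1.41 and 0.806 RPKM, and Col1a1, Pdgfra and Dcn had at most 0.0486 RPKM. Of these 15 genes 10 were marked, against 10.5% of all genes. The 10 endothelial genes summed to 1.20 and 1.34 RPKM, with Pecam1 at 0.0171 and 0.0425 RPKM. The 15 immune genes summed to 19.4 and 21.9 RPKM, and 0 were marked. Ptprc, the pan-leukocyte antigen CD45, had 0 and 0.0125 RPKM. Most of the sum came from Cd68, a lysosomal protein of macrophages, at 13.1 and 16.5 RPKM, with Cd14 at 3.58 and 2.41 RPKM and Fcer1g at 1.80 and 1.72 RPKM. The part of immune cells in these values was not tested. Regenerative or fetal epithelium genes carried 0 broad marks in 14, not set apart from the 10.5% of all genes, and 1 narrow mark. Of the 14, 11 were transcribed, against 45.3% of all genes, led by the EGF receptor ligand Areg at 22.7 and 36.2 RPKM.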

How the data were processed

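Per the file headers, the authors counted GRO-seq reads over RefSeq gene bodies with HOMER in build mm9. The submitters' processing notes name FastQC, Bowtie, Bowtie2, edgeR and HOMER 4.3. The deposited read columns are a scaled signal that sums to 20.0M over 33022 transcripts. All their values were whole multiples of 1 step per column (100% within 0.1), which gave 25839484 and 9245915 reads. The longest transcript of each of 24016 symbols was kept. RPKM was computed from the deposited signal and the column total, and 4 further columns, the authors' own RPKM, were not used. Neither the strand setting nor the coordinate base is given in the sources used here.

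H3K27me3 regions were called by the authors with HOMER on 1 ChIP library against input DNA, per the file headers, at 4-fold over input. The broad list used a window of 1000 bp and a distance of 10000 bp, and the narrow list 500 bp and 1000 bp. The deposited fold is a ratio of ChIP over input tags. The score, also deposited by the authors, is HOMER's own for each region. Region lengths are those of the deposited lists.

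Levels were averaged over the 2 libraries, and differences used log2 (RPKM + 0.5), a scale that shrinks differences of low genes. No test was run, since there is 1 group. Intervals are exact (Clopper-Pearson, 95%). Those of read ratios cover counting error only, as reads copied by PCR do not each stand for a molecule. That of a share of genes treats genes as independent draws, which genes sharing a region are not. The members, lists, alternatives and naming rule were chosen with earlier results of these data known. The rule named the 5 markers, the 20 genes with the highest level and share, up to 6 genes per list by level and every marked member that was transcribed, the 20 marked genes with the highest level, the 15 leading promoter regions by score, length and fold and the 10 genes furthest apart in each direction, without clone-like names. The text gives part of these, some items are not reported here, and list members outside it were chosen after their values were seen. Of the listed names, 6 were found under another symbol. Scripts used Python 3.11.15, pandas 2.3.3, numpy 2.4.6, scipy 1.17.1 and matplotlib 3.10.9 and were tested on simulated data.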

Additional observations from a re-analysis of the deposited data

How the results depend on the processing

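No paired analysis was possible because the libraries belong to 1 medium and no result comes from a test between groups. Of 59 pairs of a result and an alternative, 24 moved by less than the spread between the libraries, the binomial interval or 1.5 times, 35 moved further and 0 changed sign. The median log2 difference between marked and unmarked genes (−0.97) was −2.28 and −0.58 with pseudocounts of 0.1 and 1 RPKM, −1.10 with the narrow list, −1.13 over all transcripts, −1.07 for protein coding genes, −0.33 for genes transcribed in both libraries and −0.90 for regions at or above the median score. With each library left out it lay between −0.99 and −0.93. The share of marked genes (10.5%) was 17.8% with the narrow list, 9.89% at 1 kb or with at least 1000 bp covered, 11.8% at 5 kb, 11.0% for protein coding genes, 7.55% at or above the median score and 7.82% where the region must hold the start. The share of marked genes transcribed (11.5%) was 29.1% and 6.20% at levels of 0.1 and 1 RPKM, 13.6% with the narrow list, 14.9% at 5 kb, 8.14% where the region must hold the start and 12.8% to 13.9% with each library left out. The 100 most read genes (mean share 11.3%) took 8.76% without Rn45s, 8.72% for protein coding genes, 8.16% over all transcripts and 11.0% to 11.7% with each library left out. Genes over 2-fold apart (373) were 243 with a pseudocount of 1 RPKM, 62 for protein coding genes (30 higher and 32 lower in the second library) and 94 with at least 50 reads. The rank correlation of level with region length (−0.0977) was −0.0650 with 1 gene per region and −0.128 to −0.0967 with each library left out. The rank correlation with fold (−0.0277) was −0.0503 with the narrow list and −0.0490 to −0.0286 with each library left out. The share marked in the lowest minus the highest of 10 level groups (4.91 percentage points) was 11.4 with the narrow list, 22.0 over genes with reads and 6.79 to 9.12 with each library left out, where ties at 0 reads fall across groups in the order of symbols. With the narrow list, marked counts stayed within 1.5 times in 21 of 29 lists, and PRC1 went from 4 to 9, Notch from 6 to 11, goblet from 3 to 5 and immune from 0 to 3. The start inside the region, at least 50 reads, at least 500 bp, genes with reads and the narrow list for gene lists were added after seeing the data. The second library's depth limits its low levels.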

Other observations

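Promoter regions on the X chromosome had a higher fold over input than those on autosomes, by values read from the authors' list alone. The median fold was 7.25 over 40 X-linked promoter regions and 5.13 over 2127 autosomal ones. Of the 15 promoter regions with the highest fold, 8 were on X, among them those of Cnksr2, Esx1 and Dusp9. ChIP tags per 10M and kb had a median of 13.5 on X and 18.2 on autosomes, so the X-linked regions were not the denser ones in tags. Marked promoters were fewer on X, at 46 of 1049 genes (4.39%) against 10.8% on autosomes, and so were transcribed genes, at 22.5% against 46.4%. Input DNA was not analysed here, and the sex of the culture that gave the ChIP library is not in the labels.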
